A study of Mus musculus with 23 samples.

Results

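The genes described are 9 carriers and enzymes that handle glutamate and glutamine, chosen by name, of 56941 genes in the count tables. They are the vesicular glutamate transporters Slc17a7, Slc17a6 and Slc17a8, the plasma membrane glutamate transporters Slc1a1, Slc1a2 and Slc1a3, the glutamine synthetase gene Glul, and the glutamine carriers Slc38a1 and Slc38a2. Bulk RNA was sequenced from primary hippocampal cultures of P0 pups homozygous for Nedd8cKO, an allele from which CRE recombinase removes exons 2 and 3 of Nedd8, the gene of the ubiquitin-like modifier used in neddylation. All cultures carried the allele and received lentivirus at DIV1 (day 1 in vitro), encoding either RFP, the control, or CRE together with RFP, both from the Synapsin1 promoter, which is active in neurons. The sample labels give DIV12 for the harvest, and the Methods give a day 1 later. The medium held B27 and GlutaMAX, a stable source of glutamine, and the sex of the pups was not checked. Of 12 CRE and 11 RFP libraries, the 11 CRE and 10 RFP libraries in the study's own count table were compared, which leaves out CRE 3-3 and RFP 3-2. The Methods instead name CRE 1-3 and CRE 3-3 as removed, so CRE 1-3 is in the main values here, and the set of the Methods was fitted as an alternative. Library names have the form CRE 3-3, and the first number is read here as the culture, of which there were 3, although no source says so in words. Nothing states that libraries of 1 culture came from separate dishes, so the p-values measure the spread between these libraries, which may be partly technical.

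Glutamate released at a synapse is first loaded into vesicles by a vesicular transporter, then cleared from the extracellular space by plasma membrane transporters. Astrocytes take up most of it, convert it to glutamine with glutamine synthetase, and release the glutamine, which neurons take up again and turn back into glutamate. In the adult forebrain, Slc17a7 (VGLUT1) is the main vesicular form of cortical and hippocampal principal neurons, whereas Slc17a6 (VGLUT2) is typical of subcortical neurons and of neurons early in development. Slc17a8 (VGLUT3) is found in small groups of neurons that often use another transmitter as well.

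Slc17a7 fell and Slc17a6 rose in CRE libraries, and the 250 bases before the start of the canonical transcript of each are shown for that reason, read from the GRCm39 genome on the plus strand of chromosome 7. The windows are chr7:44813074-44813323 for Slc17a7 and chr7:51271184-51271433 for Slc17a6. Capitals mark the E-box CANNTG, the sequence bound by basic helix-loop-helix factors, searched on both strands.
Slc17a7: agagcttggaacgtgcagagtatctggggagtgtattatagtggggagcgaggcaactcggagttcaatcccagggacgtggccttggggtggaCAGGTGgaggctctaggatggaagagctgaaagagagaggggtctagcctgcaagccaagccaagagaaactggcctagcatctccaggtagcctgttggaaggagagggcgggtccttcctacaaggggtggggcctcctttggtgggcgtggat
Slc17a6: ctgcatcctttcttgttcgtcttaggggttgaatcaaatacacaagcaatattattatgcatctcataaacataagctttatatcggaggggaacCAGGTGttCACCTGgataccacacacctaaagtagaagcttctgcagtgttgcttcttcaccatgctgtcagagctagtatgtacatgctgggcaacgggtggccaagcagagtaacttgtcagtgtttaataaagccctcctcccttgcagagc
Slc17a7 held 1 E-box, CAGGTG, with its first base 156 bases before the start. Slc17a6 held 2, CAGGTG at 155 bases and CACCTG at 147 bases, the same letters read on opposite strands. CAGGTG on either strand was also present in the window of Slc38a2, 54 bases before its start, and thus in 3 of the 9 genes, against 17.6% of 21667 promoters of protein-coding genes. Any E-box was present in 64.8% of those promoters and in 6 of the 9 genes, with none in Slc1a1, Slc1a2 or Slc38a1. The GC content of the window was 58.0% for Slc17a7 and 44.8% for Slc17a6, with a median of 53.2% over all promoters. These matches describe the letters in the windows and nothing about binding.

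The deletion was checked first. Nedd8 lay between 5.92 and 18.0 CPM (counts per 1000000, with library sizes scaled by TMM factors) in the CRE libraries, with a median of 12.1, and between 44.1 and 76.0 CPM, with a median of 62.4, in the RFP libraries. Nedd8 was lower in each CRE library than in any RFP library, with a log2 fold change of -2.44 ± 0.17 (SE; adjusted p = 6.98e-11). Here and below, fold changes set CRE against RFP, a negative value is lower in CRE, and the p-values are those of the quasi-likelihood test in edgeR, adjusted by Benjamini-Hochberg for the 14488 genes tested.

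All 9 genes passed the filter on low counts. At an adjusted p under 0.05, 2 of the 9 rose in CRE libraries, Slc17a6 and Slc38a2, where 16.4% of all genes tested rose. 4 of the 9 fell, Slc17a7, Slc1a2, Slc1a1 and Glul, where 13.8% of all genes fell. The remaining 3, Slc17a8, Slc1a3 and Slc38a1, did not pass. Slc17a7 was the only one of the 9 whose CRE and RFP libraries did not overlap in CPM, a pattern found in 4.72% of the genes tested. It was also the only one past stricter limits, an absolute log2 fold change above 1.3 with a -log10 adjusted p above 6, which 1.39% of genes met. With the p before adjustment in that place, which is how the study words its limit, 2.49% of genes met both, and Slc17a7 was again the only one of the 9. The median log2 fold change was -0.21 over the 9 genes and 0.02 over all genes tested.

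**Figure D1:**
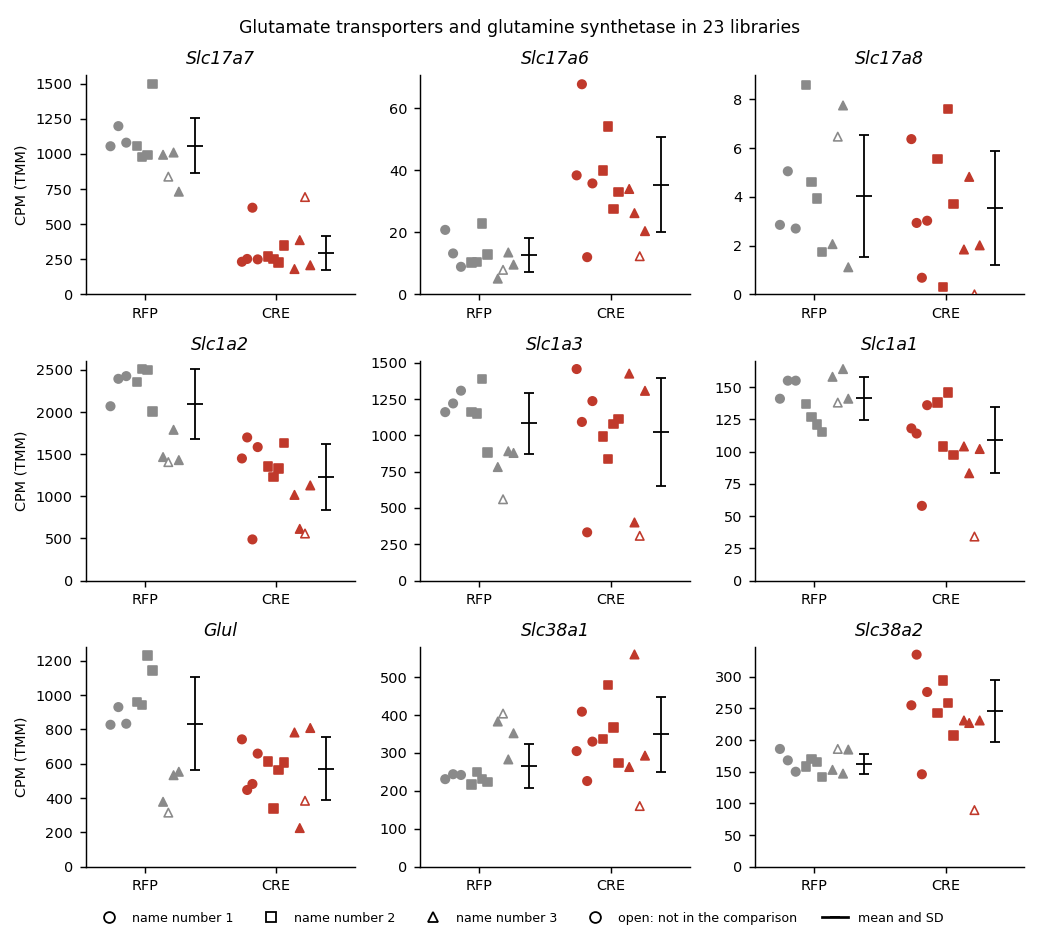
Level of each of the 9 genes in CPM (linear axes from 0) by condition in all 23 libraries, with the shape of a point giving the first number of the library name, open points the 2 libraries outside the comparison, and bars the mean and SD of the 21 libraries compared. All CRE points of Slc17a7 lie below the RFP points, those of Slc17a6 and Slc38a2 lie mostly above, and Slc17a8, Slc1a3 and Slc38a1 overlap widely.

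Slc17a7 lies on chromosome 7 (chr7:44813305-44825644, plus strand). It carries glutamate into synaptic vesicles. It was measured at 180 to 617 CPM in the CRE libraries, with a median of 252, and at 731 to 1499.1 CPM in the RFP libraries, with a median of 1032.4. The highest CRE library, CRE 1-3, stayed below the lowest RFP library, RFP 3-4, and the next highest CRE library reached 386 CPM. The log2 fold change was -1.88 ± 0.18 (SE; adjusted p = 1.23e-08), a fall by 72.7%. Within cultures 1, 2 and 3 it was -1.73, -2.09 and -1.82.

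CRE 1-3 and RFP 2-4, which held the highest Slc17a7 of their groups, stood apart from the other libraries in base composition. The transcript of Slc17a7 has a GC content of 59.3%, the highest among the 9. After the dependence on GC content was taken out of each library, a step added after the data were seen, Slc17a7 came to 284 CPM in CRE 1-3 and 1232.4 in RFP 2-4. The range became 188 to 363 CPM in the CRE libraries and 779 to 1232.4 in the RFP libraries, still without overlap. CRE 3-3, outside the comparison, had the highest CRE value at 693 CPM before that step and 327 after it.

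Slc17a6 (chr7:51271434-51320867, plus strand) encodes another carrier that fills synaptic vesicles with glutamate. Its level was 12.0 to 67.8 CPM in the CRE libraries, with a median of 34.0, and 5.06 to 22.8 CPM in the RFP libraries, with a median of 11.6. 9 of the 11 CRE libraries were above every RFP library, and CRE 1-3 and CRE 3-4 lay within the RFP range. This was a log2 fold change of 1.45 ± 0.26 (SE; adjusted p = 0.000104), with 1.42, 1.40 and 1.51 within cultures 1, 2 and 3. With the GC trend removed, CRE 1-3 moved from 12.0 to 31.6 CPM and 10 of the 11 CRE libraries were above every RFP library.

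Slc17a8 (chr10:89409882-89457326, minus strand) had few reads, with 4 to 89 counts in the CRE libraries and 11 to 103 in the RFP libraries. In CPM this was 0.304 to 7.60, with a median of 3.02, against 1.11 to 8.59, with a median of 3.39, and the groups overlapped over nearly their whole range. Its log2 fold change was -0.21 ± 0.43 (SE; adjusted p = 0.757), with the widest SE of the 9. CRE 2-2 and CRE 2-3 held 4 and 89 counts of Slc17a8 at totals of 12379471 and 11640437 counts, so the libraries differed by more than their depth.

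The weight of the 3 vesicular transporters can be compared only per length, as CPM per kb of exon. Their summed level was 38.7 to 113 CPM per kb in the CRE libraries, with a median of 55.1, and 134 to 273 in the RFP libraries, with a median of 190. Slc17a7 made up 97.4 to 99.3% of that sum in the RFP libraries and 78.5 to 98.0% in the CRE libraries, with medians of 98.5 and 86.5%. Slc17a6 made up 0.490 to 2.17% in the RFP libraries and 1.85 to 20.5% in the CRE libraries, with medians of 1.04 and 12.1%. The high end of the Slc17a7 share came from CRE 1-3, and the other 10 CRE libraries ended at 92.6%.

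Slc17a7 therefore stayed the most abundant of the 3 in every library. The mean of Slc17a7 was lower in CRE by 138 CPM per kb, from 191 ± 35.0 (SD, n = 10) to 52.8 ± 22.1 (SD, n = 11). The mean of Slc17a6 was higher by 3.96 CPM per kb, from 2.23 ± 0.945 to 6.19 ± 2.69, which equals 2.86% of the loss of Slc17a7. In culture, these levels come from all cells in the dish, and fewer cells of a type cannot be told apart from less RNA per cell.

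**Figure D2:**
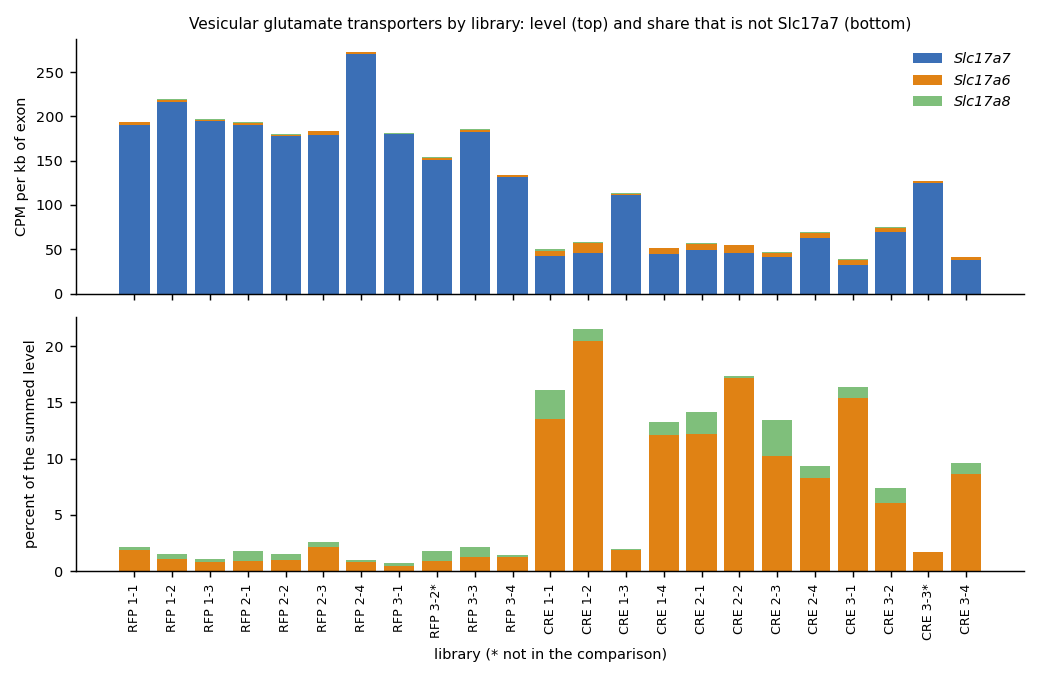
Vesicular glutamate transporters in each library, as stacked CPM per kb of exon (top) and as the percent of the summed level that is Slc17a6 or Slc17a8 (bottom), with an asterisk for libraries outside the comparison. In the RFP libraries Slc17a6 stays at or under 2.17%, and in the CRE libraries of the comparison it reaches 20.5%, with CRE 1-3 lowest at 1.85%.

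Markers of neurons and of hippocampal glutamatergic neurons moved in the direction of Slc17a7. For the counts of markers, the shares over all genes tested were 16.4% higher and 13.8% lower. Of 8 neuron markers, 6 fell and none rose, with a median log2 fold change of -0.75, and their summed level was 3021.3 to 5793.5 CPM in the CRE libraries and 6268.5 to 7381.9 CPM in the RFP libraries. Of 8 markers of hippocampal glutamatergic neurons, 5 fell and none rose, with a median of -0.58 and sums of 561 to 811 against 996 to 1591.7 CPM. By mean CPM over both groups, the most abundant genes of these lists were Map2, Syt1 and Stmn2 (log2 fold changes of -0.67, -0.91 and -0.80) and Zbtb20, Neurod6 and Bcl11b (-0.58, -1.92 and -0.58), all of which fell. Snap25, which exceeded Syt1 and Stmn2 in mean CPM in the CRE libraries, did not pass (-0.32, adjusted p = 0.299). No marker of either list was at 0 in all libraries. Of 8 GABA neuron markers 2 rose, 1 fell and 5 did not pass, with a median of 0.12 and sums of 865 to 1823.9 against 1098.8 to 2323.7 CPM. Cajal-Retzius cells are another glutamatergic type of the developing hippocampus that uses Slc17a6, and of 6 of their markers only 3 could be tested, of which Calb2 fell (-1.39) and none rose, with sums of 131 to 341 against 220 to 630 CPM. For the lists with no gene higher, none was higher either at an unadjusted p under 0.05 with edgeR or at an adjusted p under 0.05 with DESeq2 or limma-voom. Whether the share of neuron types played a part in the values of Slc17a7 and Slc17a6 was not tested.

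Among the plasma membrane transporters, Slc1a2 fell, Slc1a1 fell by less, and Slc1a3 did not pass. Slc1a2 (GLT-1 or EAAT2; chr2:102488574-102621129, plus strand) takes up most of the glutamate in the forebrain and is mainly astrocytic. Its level was 488 to 1699.1 CPM in the CRE libraries, with a median of 1327.7, and 1429.6 to 2509.2 CPM in the RFP libraries, with a median of 2214.3. 7 of the 11 CRE libraries were below every RFP library, and CRE 1-3 and CRE 3-2 were the lowest. Slc1a2 thus had a log2 fold change of -0.79 ± 0.18 (SE; adjusted p = 0.00134), and -0.83, -0.81 and -0.77 within cultures 1, 2 and 3.

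Slc1a3 (GLAST or EAAT1; chr15:8663604-8741595, minus strand) is the other astrocytic glutamate transporter and the earlier of the pair in development. It was measured at 332 to 1457.5 CPM in the CRE libraries, with a median of 1092.9, and at 782 to 1388.4 CPM in the RFP libraries, with a median of 1155.5. 2 CRE libraries were below the RFP range, 2 above it, and 7 within it. For Slc1a3 the log2 fold change was -0.10 ± 0.20 (SE; adjusted p = 0.758), and -0.27, -0.24 and 0.29 within cultures 1, 2 and 3. Without CRE 1-3 and CRE 3-3 the sign turned, to 0.08 (adjusted p = 0.760).

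The ratio of Slc1a2 to Slc1a3 compares both astrocytic transporters inside each library and so does not change with the scaling between libraries. Per kb of exon it was 0.744 to 1.62 in the CRE libraries, with a median of 1.42, and 1.70 to 2.37 in the RFP libraries, with a median of 2.00. The groups did not overlap, although CRE 3-3, which is outside the comparison, had a ratio of 1.89, within the RFP range. The lowest ratios, 0.744 and 0.901, were those of CRE 3-1 and CRE 3-4, in which Slc1a3 was at 1425.9 and 1307.3 CPM. The ratio was examined after the values of both genes had been seen and is a description.

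Of 12 other astrocyte markers, 4 rose (Gja1, Gjb6, Sox9 and Acsbg1), 3 fell (Aldh1l1, S100b and Aldoc) and 5 did not pass, with a median log2 fold change of -0.11. Over all genes tested, 16.4% rose and 13.8% fell. That share applies to the other marker lists of this paragraph too. The summed level of the astrocyte markers was 1101.4 to 5052.2 CPM in the CRE libraries and 2281.8 to 5548.4 CPM in the RFP libraries, with medians of 3580.5 and 3937.1, and none was at 0 in all libraries. Among the most abundant were Aldoc (log2 fold change -0.64, adjusted p = 0.0490) and Gfap (-0.22, adjusted p = 0.589). The highest sum among the CRE libraries was that of CRE 1-3, in which both Slc1a2 and Slc1a3 were lowest in CPM. With the GC trend removed, neither was lowest in CRE 1-3. Slc1a2 then came to 937 CPM there, in a CRE range of 601 to 1508.9 CPM. Slc1a3 came to 552 CPM, in a CRE range of 387 to 1294 CPM. The sum of the markers was not computed in that way. Of 8 oligodendrocyte lineage markers 5 fell and none rose, by edgeR at an unadjusted p or by DESeq2 or limma-voom either, with a median of -0.99. Of 6 microglia markers 2 could be tested and 1, Tmem119, rose, with sums of 0.256 to 7.70 CPM against 1.09 to 6.56 CPM, and of 8 endothelial and mesenchymal markers 6 could be tested, with 1 higher, 1 lower and a median of 0.62. The part of these cell types in the values of Slc1a2 was not tested.

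Slc1a1 (EAAC1 or EAAT3; chr19:28812449-28891360, plus strand) is the neuronal member of the family and also carries cysteine. It was measured at 57.9 to 146 CPM in the CRE libraries, with a median of 104, and at 115 to 164 CPM in the RFP libraries, with a median of 141. In 7 CRE libraries it was under the whole RFP range, and the other 4 lay inside that range. Slc1a1 had a log2 fold change of -0.39 ± 0.13 (SE; adjusted p = 0.0196). It was -0.51 and -0.68 within cultures 1 and 3 and -0.09 within culture 2. It no longer passed without culture 1, at -0.33 (adjusted p = 0.0606), without culture 3, at -0.30 (adjusted p = 0.192), or with scaling by library totals alone, at -0.31 (adjusted p = 0.0647).

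**Figure D3:**
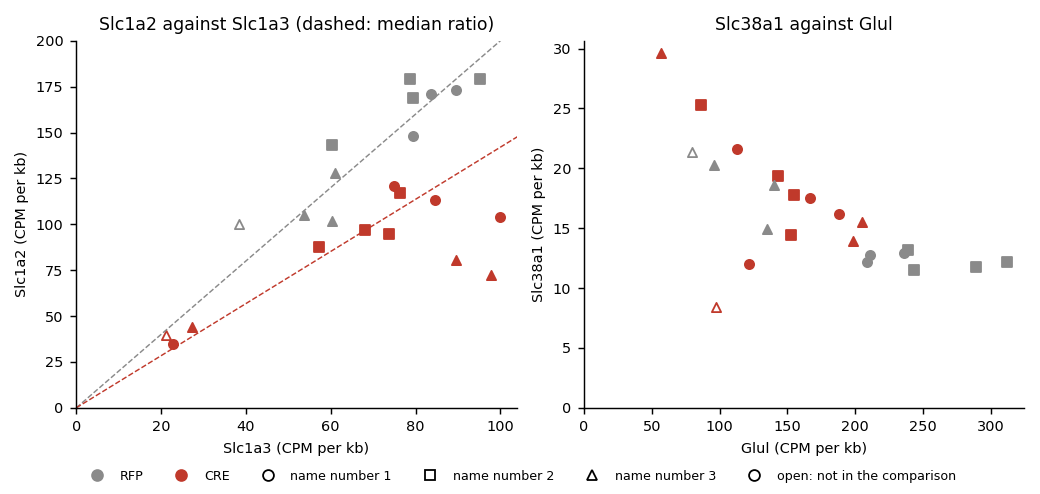
CPM per kb of exon in each of the 23 libraries for Slc1a2 against Slc1a3 (left, with dashed lines at the median ratio of each group, 1.42 and 2.00) and for Slc38a1 against Glul (right), with open points for the 2 libraries outside the comparison. CRE libraries of the comparison lie below the RFP libraries in Slc1a2 at a given Slc1a3, and Slc38a1 is higher where Glul is lower in most libraries of both groups.

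Glul (chr1:153775690-153785469, plus strand) encodes glutamine synthetase, which in brain is an astrocytic enzyme. It was measured at 225 to 808 CPM in the CRE libraries, with a median of 606, and at 378 to 1230.6 CPM in the RFP libraries, with a median of 882. Only 2 CRE libraries, CRE 2-2 and CRE 3-2, were below the RFP range. The log2 fold change was -0.57 ± 0.21 (SE; adjusted p = 0.0375). Within cultures it was -0.58, -1.06 and 0.31, and the test of the difference between cultures gave p = 0.0209 before and 0.979 after adjustment. Without culture 2 the value was -0.19 (adjusted p = 0.697), and over all 23 libraries it was -0.50 (adjusted p = 0.0871). Of the transcript's 50-base stretches 20.85% occur elsewhere, mostly in the pseudogene Glns-ps1, so reads from it may have been lost or shared in counting.

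In the RFP libraries of culture 3, Glul lay at 378 to 553 CPM, against 827 to 1230.6 CPM in the other RFP libraries. Slc1a2 and Slc38a1 were divided in a like way, with 1429.6 to 1789.3 CPM of Slc1a2 and 283 to 383 CPM of Slc38a1 in the RFP libraries of culture 3, against 2005.5 to 2509.2 CPM and 217 to 250 CPM in the others. The CRE libraries of culture 3 held the lowest Glul of the CRE group, 225 CPM in CRE 3-2. They also held the highest, 782 CPM in CRE 3-1 and 808 CPM in CRE 3-4. The estimates for Slc1a2 were below 0 within each culture, whereas the estimate for Glul in culture 3 was above 0, at 0.31 ± 0.48 (SE).

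Slc38a1 and Slc38a2 carry glutamine by sodium-coupled transport, are found in neurons among other cells, and lie next to each other on the minus strand of chromosome 15 (chr15:96469298-96541851 and chr15:96585266-96597894). Slc38a2 rose. Its level was 146 to 335 CPM in the CRE libraries, with a median of 243, and 142 to 186 CPM in the RFP libraries, with a median of 161. 10 of the 11 CRE libraries were above every RFP library, and CRE 1-3 was the exception at 146 CPM. With the GC trend removed, CRE 1-3 came to 372 CPM and all 11 CRE libraries, at 187 CPM or more, were above the RFP libraries, at 170 CPM or less. On the log2 scale the change was 0.58 ± 0.11 (SE; adjusted p = 0.000254), with 0.58, 0.61 and 0.50 within cultures 1, 2 and 3.

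Slc38a1 was measured at 226 to 560 CPM in the CRE libraries, with a median of 330, and at 217 to 383 CPM in the RFP libraries, with a median of 243. 3 CRE libraries were above the RFP range and 8 lay within it. At 0.38 ± 0.15 (SE) on the log2 scale, its adjusted p of 0.0534 missed the threshold. Over the 19 libraries without CRE 1-3, CRE 3-3, RFP 2-4 and RFP 3-2, it was 0.40 and passed (adjusted p = 0.0255). Per kb of exon, the ratio of Slc38a2 to Slc38a1 was 0.790 to 1.71 in the CRE libraries and 0.780 to 1.57 in the RFP libraries, so the groups overlapped.

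**Figure D4:**
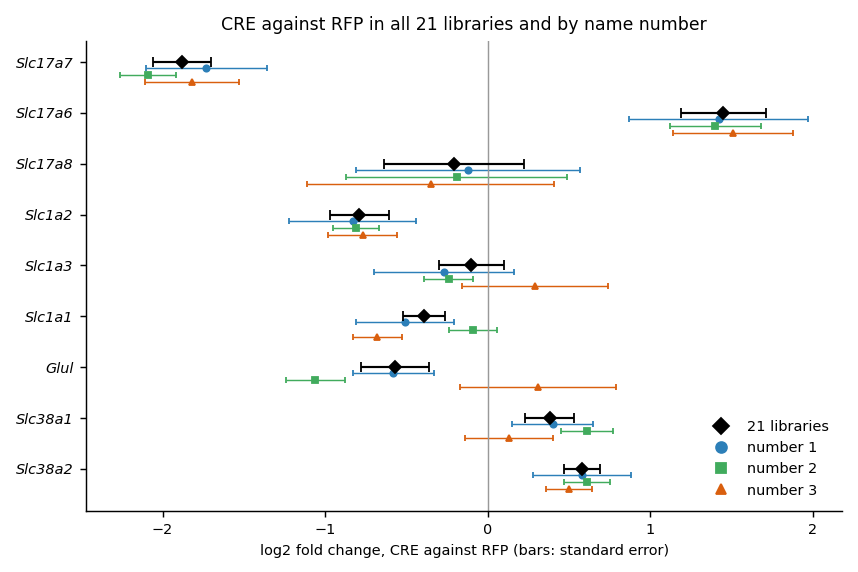
Log2 fold change of CRE against RFP for each of the 9 genes, with the standard error as bars, over all 21 libraries (diamonds) and within each culture (first number of the library name). All but Slc1a3 and Glul have estimates of 1 sign in all 3 cultures, and those of Glul run from -1.06 to 0.31.

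The effect of CRE was compared between the 3 cultures with interaction terms of condition and culture in edgeR's quasi-likelihood test. None of the 9 genes had an adjusted p under 0.05, where 0.00582% of 17173 genes did, and 1 of the 9, Glul, had an unadjusted p under 0.05. Tested alone, culture 1 (4 CRE and 3 RFP libraries) called 1 of the 9, Slc17a7, which was lower, where 0.86% of genes were called lower and 2.04% higher. Culture 2 (4 and 4) gave 3 lower, Slc17a7, Slc1a2 and Glul, and 3 higher, Slc17a6, Slc38a1 and Slc38a2, where 11% of genes were called lower and 9.19% higher. Culture 3 (3 and 3) gave 3 lower, Slc17a7, Slc1a1 and Slc1a2, and 1 higher, Slc17a6, where 3.8% of genes were called lower and 4.1% higher. For Slc17a7 and Slc17a6 the unadjusted p of the interaction was 0.741 and 0.994, which does not show that the cultures were alike, given 3 or 4 libraries per condition in each.

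Over all 23 libraries, 2 of the 9 genes rose and 3 fell, where 16.4% of 14382 genes rose and 11.8% fell. Over the 19 libraries, 3 of the 9 rose and 3 fell, where 19.4% of 14666 genes rose and 18.7% fell. Slc17a7, Slc1a2 and Slc1a1 fell in both, Slc17a6 and Slc38a2 rose in both, and Slc38a1 rose in the latter only. The log2 fold change of Slc17a7 was -1.68 over the 23 libraries (adjusted p = 3.5e-07) and -1.98 over the 19 (adjusted p = 2.56e-12).

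Ordered by mean CPM per kb in the RFP libraries, the 9 genes were Glul (211), Slc17a7 (191), Slc1a2 (150), Slc1a3 (74.1), Slc38a2 (16.7), Slc1a1 (16.5), Slc38a1 (14), Slc17a6 (2.23) and Slc17a8 (0.819). In the CRE libraries the order was Glul (144), Slc1a2 (87.9), Slc1a3 (70.2), Slc17a7 (52.8), Slc38a2 (25.3), Slc38a1 (18.5), Slc1a1 (12.7), Slc17a6 (6.19) and Slc17a8 (0.716). Slc17a7 thus stood in position 2 in the RFP and in position 4 in the CRE libraries. In the RFP libraries the ranges of Glul, Slc17a7 and Slc1a2 overlapped, as did those of Slc38a2, Slc1a1 and Slc38a1, while Slc1a3 did not overlap with Slc1a2 or with Slc38a2, nor Slc38a1 with Slc17a6. In the CRE libraries every gene overlapped in range with its neighbours in the order, except that Slc17a6 and Slc17a8 did not overlap. The length is that of all annotated exons of a gene, so a gene with a long unused exon is understated.

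Beyond the 9 genes, 35 other genes of glutamate and glutamine handling were listed, of which 32 could be tested. Of these 11 rose, 4 fell and 17 did not pass, with a median log2 fold change of 0.24. For this list and its parts below, the shares over all genes tested were 16.4% higher and 13.8% lower. Slc38a4, Slc38a5 and Slc17a9 had too few counts in the 21 libraries compared. Over the 19 libraries Slc38a4 could be tested and was higher in CRE (1.96, adjusted p = 0.00681). Its level was low, at 1.43 ± 0.907 CPM (SD, n = 11) in CRE and 0.344 ± 0.381 CPM (SD, n = 10) in RFP libraries of the comparison.

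Of the 6 other plasma membrane carriers listed, 5 rose. Slc1a4 (ASCT1), a carrier of neutral amino acids such as serine and alanine, was measured at 327 to 756 CPM in the CRE and 172 to 277 CPM in the RFP libraries, without overlap, with a log2 fold change of 1.10 ± 0.14 (SE; adjusted p = 1.05e-06). Slc3a2, the heavy chain shared by several amino acid exchangers, was measured at 253 to 509 against 187 to 249 CPM, also without overlap (0.68 ± 0.12, adjusted p = 8.01e-05). Of all genes tested, 4.72% had CRE and RFP libraries without overlap. Slc1a6 (EAAT4), known mainly from Purkinje cells, was low at 5.63 ± 3.03 CPM (SD, n = 11) against 2.87 ± 0.792 CPM (SD, n = 10), with a log2 fold change of 0.94. Slc7a11, the light chain that forms the cystine/glutamate exchanger with Slc3a2, and the glutamine carrier Slc1a5 (ASCT2) complete the 5 and fall outside the rule for named genes, being added after their values were seen. Their log2 fold changes were 0.79 (adjusted p = 0.0179) and 0.76 (adjusted p = 0.0419).

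Of 12 enzymes of glutamate and glutamine, 4 rose with edgeR, DESeq2 and limma-voom alike, and none fell with any of them or at an unadjusted p under 0.05. Glud1, glutamate dehydrogenase, which feeds glutamate into the citric acid cycle, was measured at 199 to 575 CPM in the CRE and 163 to 255 CPM in the RFP libraries, with a log2 fold change of 0.87 ± 0.15 (SE; adjusted p = 6.26e-05). The mitochondrial aspartate aminotransferase Got2 (0.39, adjusted p = 0.00418), Aldh4a1 of proline breakdown (0.44, adjusted p = 0.0108) and the alanine aminotransferase Gpt (0.88, adjusted p = 0.0168) were the others.

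Of 5 mitochondrial carriers, 3 fell, 1 rose and 1 did not pass. Slc25a22, the mitochondrial glutamate carrier, was measured at 120 to 325 CPM in the CRE and 230 to 329 CPM in the RFP libraries, with a log2 fold change of -0.78 ± 0.15 (SE; adjusted p = 0.000261). Slc25a11, the oxoglutarate/malate carrier, and the aspartate/glutamate carrier Slc25a12 fell by less (-0.43, adjusted p = 0.00631, and -0.30, adjusted p = 0.00876). Slc25a13, the other aspartate/glutamate carrier, rose from a low level of 1.04 to 2.99 mean CPM (1.48, adjusted p = 0.0155). Of 5 genes that make, carry or break down GABA, 1 rose, 1 fell and 3 did not pass, with a median log2 fold change of -0.25. The vesicular GABA transporter Slc32a1, named here after its value was seen, rose (0.44, adjusted p = 0.0423), and Gad1, Gad2 and Abat did not pass. Over the 19 libraries Slc32a1 did not pass (0.36, adjusted p = 0.0617), whereas Gad2 passed as lower (-0.34, adjusted p = 0.00724). The 3 other glutamine carriers tested had log2 fold changes from 0.31 to 0.62 and did not pass, although 2 had an unadjusted p under 0.05 with edgeR.

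**Figure D5:**
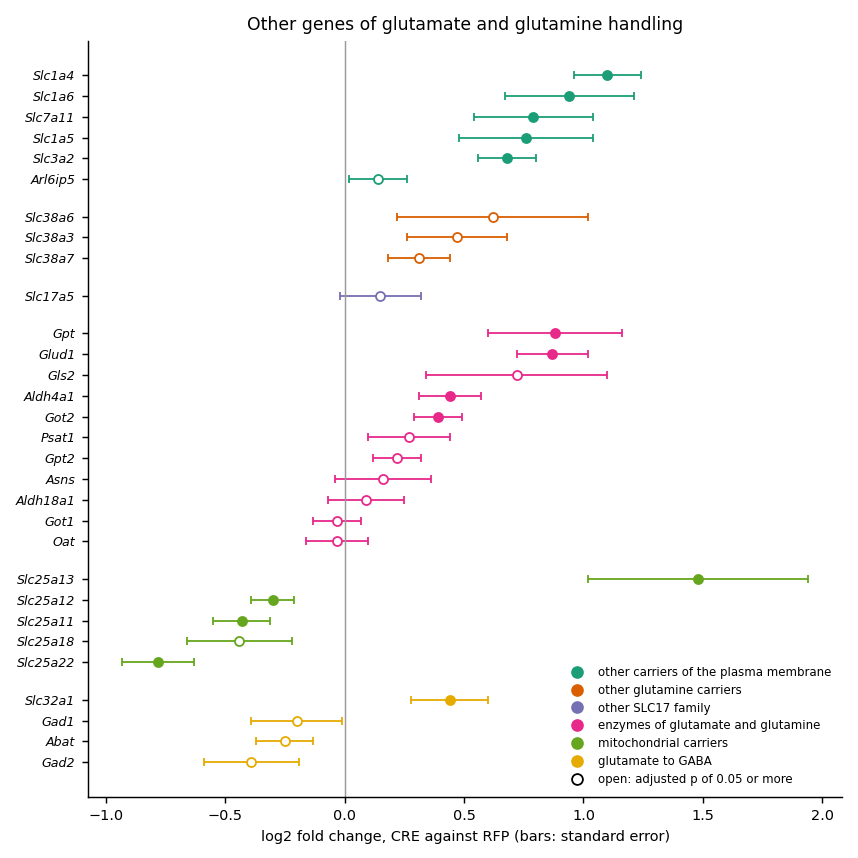
Log2 fold change of CRE against RFP, with the standard error as bars, for tested genes of glutamate and glutamine handling outside the 9, grouped by role and without genes not reported here, with filled points for an adjusted p under 0.05. Of the plasma membrane carriers 5 of 6 are filled and to the right of 0, and 3 of 5 mitochondrial carriers are filled and to the left.

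After the mean of each condition was removed, some of the 9 genes varied together over the 19 libraries. Slc1a3 and Glul had a Pearson r of 0.91, Slc1a2 and Slc1a3 of 0.76, and Slc1a2 and Glul of 0.68. Slc38a1 ran opposite to them, with r of -0.93 with Glul and -0.85 with Slc1a3. CRE 3-2 had the lowest Glul (225 CPM), Slc1a3 (400 CPM) and Slc1a2 (613 CPM) of the 19 libraries. It also had the highest Slc38a1 (560 CPM), and the r without this library was not computed. Slc17a7 and Slc17a6, which CRE moved in opposite directions, had an r of 0.07 with each other. Slc17a6 had an r of 0.58 with Slc38a2 and of 0.47 with Slc1a2, and Slc17a7 had an r of -0.48 with Slc1a3. These values describe libraries that share cultures and a common scaling, and carry no test.

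The genes most like Slc1a2 over the same 19 libraries were Aldoc (r = 0.98), an astrocytic glycolytic enzyme, and the fatty acid desaturases Scd1 (0.97) and Scd2 (0.96). For Slc17a7 they were Mapk8ip1 (0.90), Fam131a (0.86) and Gpr137 (0.85), and they included Ppat (0.80) and Inafm2 (0.77) for Slc17a6, and Prr7 (0.79) and Opcml (0.78) for Slc17a8. These are the highest correlations among all genes tested and carry no test. Over the 21 libraries compared, Aldoc, Scd2, Inafm2, Prr7 and Opcml were no longer among the 3 most like. Scd1, Ppat and the 3 genes of Slc17a7 stayed.

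The libraries compared held 7430401 to 13345552 counts in CRE (median 11082822) and 9833872 to 17112815 in RFP (median 11569225.5). CRE 3-3 held 1546796 counts and RFP 3-2 held 24.2% of its counts in the ribosomal gene Rn18s-rs5. Mitochondrial genes took 0.261% of counts in CRE 1-3 and 3.43% in RFP 2-4, against 7.0 to 11.1% in the other 19 libraries compared. The Spearman correlation of a library's deviation with GC content, across genes, was 0.746 in CRE 1-3, 0.474 in RFP 2-4 and between -0.211 and 0.210 in the other 19. Exons of 8 of the 9 genes, all but Slc17a8, overlap a gene on the opposite strand. The kit keeps the strand, but the strand setting of the counting is not given in the sources used here. Where such a partner gene was listed in the count tables, its highest count in any library was 83.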

How the data were processed

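The authors prepared Illumina Stranded mRNA libraries, aligned reads with STAR 2.7.8a to GRCm39 with Ensembl 110, allowing 2 mismatches, and counted them with featureCounts 1.5.0-p1 (bcl2fastq 2.20.0.422; versions from the submitters' processing notes). They deposited whole-number counts per gene for each library, without normalization. How reads with several alignments were counted is not given in the sources used here.

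Conditions came from the sample titles. Counts were analysed in R 4.3.3 with edgeR 4.0.16 (filterByExpr, TMM, robust glmQLFit and glmQLFTest, no covariates, Benjamini-Hochberg adjustment), and DESeq2 1.42.0 and limma-voom (limma 3.58.1) were alternatives. The study used PyDESeq2. CPM used 1 set of TMM factors, from the 14382 genes left by the filter on all 23 libraries. Names, exon lengths, GC content and promoters came from the GENCODE M39 annotation of GRCm39, which named 56323 of 56941 genes. Each library's trend with GC content was estimated by lowess with a span of 0.3. The fit was also run on simulated counts, drawn without differences between cultures or trends with GC content, so that run says nothing about those features. Python 3.11.15 with pandas 2.3.3 was used for summaries.

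The genes and lists were chosen with earlier results of these data known. Named with values were the 9 genes, Nedd8, up to 8 genes with the smallest p in each direction of the list of other pathway genes, up to 3 of the most abundant genes of marker lists, and the 3 genes most like each vesicular transporter and Slc1a2 by Pearson correlation of log2(CPM + 0.5). Other genes were named after their values were seen. Some genes that the rule takes are counted but not reported by name here. None of 121 pairs of libraries within a group agreed within sampling noise, with a chi-square per degree of freedom of at least 10.9, so precision here rests on the spread between libraries more than on depth.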

Additional observations from a re-analysis of the deposited data

How the results depend on the processing

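Slc17a7, Slc17a6 and Slc38a2 kept their direction and stayed past the threshold under all 17 alternatives of libraries, tool, scaling, filter, GC trend, blocks and cultures, with log2 fold changes of -2.0 to -1.68, 1.39 to 1.61 and 0.50 to 0.68, and in all 21 fits that left out a library. The call for Glul was lost in 13 of 17 alternatives: with library totals alone (-0.48), over all 23 libraries (-0.50), without CRE 1-3 and CRE 3-3, the set named in the Methods (-0.44), over the 19 libraries (-0.49), with no filter on low counts (-0.56), with the GC trend removed over the 21, 23 and 19 libraries (-0.58, -0.56 and -0.48, the last 2 chosen after seeing the data), with a culture block (-0.51), a replicate block (-0.53) and sums per culture (-0.54), and without culture 1 (-0.56) or 2 (-0.19). Leaving out 1 library gave Glul -0.66 to -0.49, and the call was lost without CRE 1-3 and without each RFP library of cultures 1 and 2. Slc38a1 passed in 9 of 17: with library totals alone (0.47), without CRE 1-3 and CRE 3-3 (0.38), over the 19 libraries (0.40), with DESeq2 (0.38), with no filter (0.39), with the GC trend removed over 21 and 19 libraries (0.38 and 0.37), with a culture block (0.40) and without culture 3 (0.50), but not with sums per culture (0.37, adjusted p = 0.0741). Leaving out 1 library gave Slc38a1 0.26 to 0.45, and it passed without CRE 1-3, RFP 3-1 or RFP 3-4. Slc1a1 lost its call with library totals alone (-0.31), the replicate block (-0.38), without culture 1 (-0.33) and without culture 3 (-0.30), and Slc1a2 without culture 2 (-0.76, adjusted p = 0.0669). Slc1a3, never past the threshold, turned sign without CRE 1-3 and CRE 3-3 (0.08) and in culture 3 alone (0.29), as did Glul in culture 3 alone (0.31). Tested alone, culture 1 lost the calls of Slc17a6 (1.42), Slc1a2 (-0.83), Slc38a2 (0.58), Slc1a1 (-0.51) and Glul (-0.58), culture 2 lost Slc1a1 (-0.09) and gained Slc38a1 (0.61), and culture 3 lost Slc38a2 (0.50). Members of the 9 called lower numbered 2 with library totals alone, with the replicate block, without culture 1 and without culture 2, against 4. Genes called numbered 4370 in all, 6920 with no filter and 2114 without culture 2. The causes were not tested.

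Library numbers shared between conditions did not pair the libraries. Of 9 same-numbered pairs, 1 had a correlation of deviations over 0.1, with a range of -0.0657 to 0.123, and 1 CRE library was closest to the RFP library of its own number. For the first number, read as the culture, the correlation between conditions was 0.0353, 0.00487 and 0.152 for cultures 1, 2 and 3. The values within cultures, the culture block and the interaction test rest on that reading, which these low correlations do not settle. Slc17a7 had a log2 fold change of -1.98 with the replicate block. Scaling by library totals alone moved the median of all genes to 0.11, and against that shift Slc17a7 and Slc17a6 stayed at -1.80 and 1.54. Spread between libraries, with a chi-square per degree of freedom of at least 10.9 within a group, limits these values more than depth does.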
